A study of Mus musculus with 12 samples.

Results

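The collagen chains were the 44 genes, of 24421 in each of 2 deposited tables, whose symbol is Col, a number, the letter a and a number. The rule used no measured value, and all 44 were protein-coding genes of the GENCODE M21 annotation of the mouse genome mm10. By the structure of the protein they fell into 11 chains of fibrillar collagens, 6 of basement membrane type IV, 6 of beaded-filament type VI, 9 of fibril-associated collagens (FACITs), 4 transmembrane collagens, 3 of the network types VIII and X, 2 multiplexins, 1 chain of the anchoring fibril type VII and 2 others (Col26a1 and Col28a1).

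Collagens are extracellular matrix proteins whose chains wind into helical trimers, in some types from 1 kind of chain and in others from different kinds. The chains are hydroxylated, glycosylated and folded in the endoplasmic reticulum, fibrillar types are trimmed after secretion and cross-linked by lysyl oxidases, and cells sense them through integrins and discoidin domain receptors. In the brain, collagen is known mainly from the meninges, the vessel walls and the basement membranes around them, and the tissue between them holds little of it.

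Expression was measured by polyA RNA sequencing in 12 mouse libraries, 3 in each of 4 groups. The ETV5 tumours were ZFTA-RELA ependymomas with overexpression of ETV5, an ETS family transcription factor, and the NPY tumours were ZFTA-RELA ependymomas with overexpression of NPY, the precursor of neuropeptide Y. The labels give both added genes as human variants. The control tumours carried ZFTA-RELA, a fusion that drives ependymoma, with no further change given, and the cortex was wild-type tissue without tumour. All tumour groups thus share the fusion. No source used here gives the strain, the age, how the fusion and the added genes were delivered, or whether replicates were separate animals. The p-values therefore measure only how these samples spread, which may be technical.

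Recovered reads per library were 6691146 to 11291057 in ETV5 tumours, 8214523 to 10481943 in NPY tumours, 6266613 to 9443466 in control tumours and 5962376 to 7444467 in cortex. Mouse Etv5 stood at 407, 474 and 401 CPM in ETV5 tumours, against 264, 322 and 299.5 CPM in control tumours. Mouse Npy stood at 5.59, 2.19 and 15.9 CPM in NPY tumours, against 27.2, 21.5 and 46.1 CPM in control tumours. Whether reads of the human genes were in part counted at the mouse genes was not tested, so both names follow the labels. Summed over 13 markers of cortical excitatory neurons, the level was 63.0, 499 and 191 CPM in ETV5 tumours, 75.5, 64.5 and 55.6 CPM in NPY tumours, 403, 515 and 829.8 CPM in control tumours, and 6832, 7652 and 6239 CPM in cortex. ETV5 replicate 2 lay within the range of the control tumours on these markers, and the other 5 libraries of tumours with an added gene lay below it. The library codes of the labels begin with EC in ETV5 replicate 3 and all NPY tumours and with DS in all others, so code and group cannot be told apart for the NPY tumours.

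Levels are given as CPM, the reads of a gene scaled to the total of its library, and as mean ± SD over 3 libraries where no library is named. The summed level of the 44 chains was 9695, 5971 and 7353 CPM in ETV5 tumours, 8187, 8215 and 12583 CPM in NPY tumours, 8173, 14745 and 10037 CPM in control tumours, and 622, 493 and 599.7 CPM in cortex. All 9 tumour libraries lay above all cortex libraries, and the tumour groups overlapped one another. Between control tumours and cortex the ratio of geometric means was 18.7, with p = 0.1 by a two-sided exact permutation test, the smallest that 3 libraries against 3 allow. The mean exceeded 10 CPM for 31 chains in ETV5 tumours, 30 in NPY tumours, 31 in control tumours and 18 in cortex, and 100 CPM for 14, 19, 20 and 0 chains in these groups in the same order.

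To compare levels between chains, each CPM was divided by the length of the transcript in kilobases. On this length-scaled level the highest chain of the ETV5 tumours was Col18a1, a multiplexin of basement membranes whose end fragment is endostatin, at 196 ± 111 CPM per kilobase, followed by Col9a3, a FACIT chain, at 176 ± 108. The NPY tumours had Col9a3 first at 271 ± 88.3 CPM per kilobase and Col18a1 next at 194 ± 49.1. The control tumours were led by Col9a3 at 402 ± 325 CPM per kilobase, Col1a1, the main chain of fibrillar type I, at 281 ± 92.5 and Col18a1 at 192 ± 48.1. None of these neighbours in the order differed beyond their spread. In cortex Col25a1, a transmembrane collagen of neurons found in amyloid plaques, stood first at 26.5 ± 6.58 CPM per kilobase, above Col9a3 at 12.7 ± 0.624 and Col6a1, a chain of type VI, at 11.6 ± 4.08. The 3 libraries of Col25a1 all lay above those of Col9a3 there. In CPM, Col25a1 averaged 69.5 ± 17.3 in cortex, against 38.7 ± 1.90 for Col9a3. The length-scaled place rests on the 2624 bases of the transcript used for Col25a1, while all its annotated exons together hold 12947 bases. At that longer length it would not stand first, and the transmembrane share of cortex given below would be smaller.

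As shares of the summed length-scaled level, multiplexins made up 19.2, 10.6 and 11.8% in ETV5 tumours, 13.6, 9.66 and 10.4% in NPY tumours, 11, 8.55 and 10.4% in control tumours, and 1.69, 1.74 and 1.33% in cortex. Transmembrane collagens made up 2.96, 21 and 9.31% in ETV5 tumours, 1.91, 6.64 and 1.65% in NPY tumours, 5.96, 2.55 and 4.01% in control tumours, and 22.2, 21.2 and 26.9% in cortex. Type VI chains made up 2.07, 1.34 and 1.64% in ETV5 tumours, 1.33, 2.38 and 2.39% in NPY tumours, 5.46, 0.719 and 1.53% in control tumours, and 10.8, 12.6 and 15.8% in cortex. On all 3 shares the control tumours did not overlap with cortex. In cortex Col25a1 alone held 19.5, 18.5 and 24.2% of the summed level, against 0.0683 to 0.139% in control tumours. ETV5 replicate 2 came close to cortex in its transmembrane share through another chain, Col23a1. That chain alone held 18.2% of the summed level there, against 2.15 to 4.88% in the control tumours. A share can fall without a lower level, since the summed level was higher in all tumour libraries. No type VI chain tested was called lower in control tumours. Fibrillar chains made up 32.4 ± 3.29% in control tumours, against 19.3 ± 2.37% in cortex, without overlap. The ETV5 libraries held 19.9, 41.2 and 22.0% as fibrillar chains, while the NPY libraries held 18.1, 34.2 and 30.6%. ETV5 replicate 1 and NPY replicate 1 thus lay within the cortex range of 17.5 to 22.0%. FACIT chains made up 36.3 ± 12.4% in control tumours, against 23.9 ± 2.05% in cortex, with overlap. The type IV share was 13.9 ± 4.33% in control tumours, against 13.4 ± 1.72% in cortex, and the libraries of the groups overlapped.

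**Figure D1:**
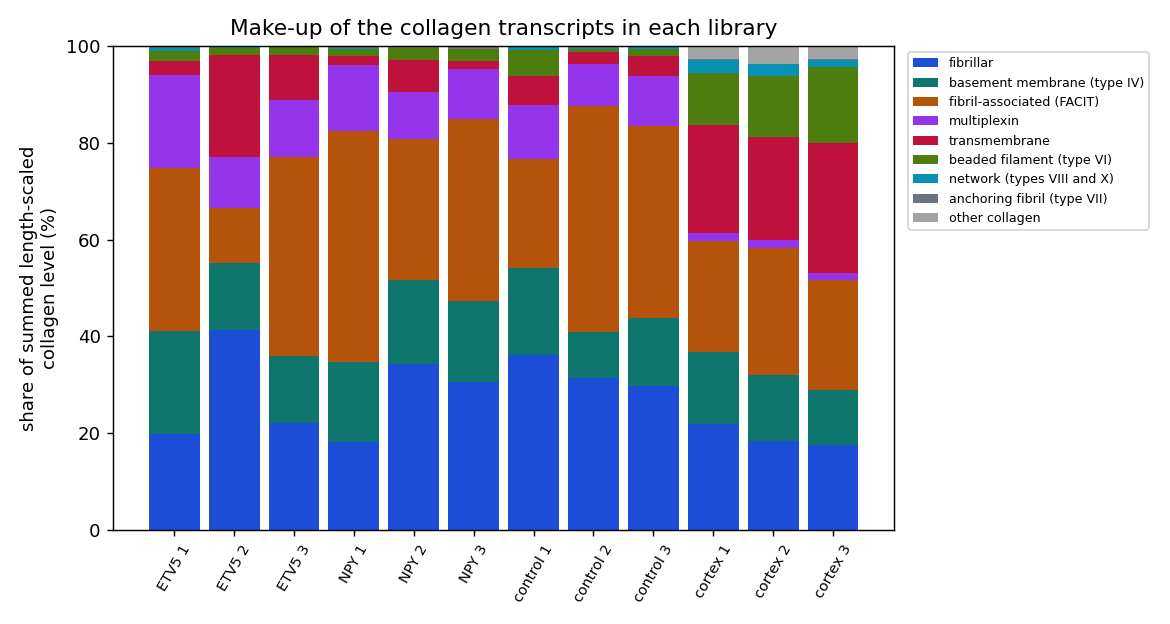
Share of the summed length-scaled collagen level (percent, bars from 0 to 100) held by each structural class in each of the 12 libraries. Transmembrane chains hold 2.55 to 5.96% in control tumours and 21.2 to 26.9% in cortex, and multiplexins hold 8.55 to 11% in control tumours and 1.33 to 1.74% in cortex. Most of the transmembrane share of cortex is Col25a1.

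The first comparison, control tumours against cortex, asked how the collagen transcripts of the fusion-driven tumour differed from those of non-tumour cortex. Of the 44 chains, 30 rose in control tumours and 4 fell (Col19a1, Col25a1, Col26a1 and Col24a1). The test was limma, two-sided, on log2(deposited value + 1), with adjusted p-values by Benjamini-Hochberg over all 14621 genes tested and a threshold of 0.05. Over all these genes 72.0% passed, 35.7% as higher and 36.2% as lower, and the median log2 fold change was -0.003, against 3.51 over the 40 chains tested. In 31 of the 40 chains all control libraries lay above all cortex libraries, and in 3 all lay below, beside 43.8% and 33.6% of all genes. Col6a1, Col6a2, Col6a5, Col8a2, Col22a1 and Col28a1 did not pass. Of the 40 chains, 8 had fewer than 10 reads in at least 1 cortex library (Col2a1, Col4a4, Col6a5, Col6a6, Col7a1, Col9a1, Col13a1 and Col28a1), and so entered the test mainly through the tumours. Col4a3, Col6a4, Col10a1 and Col17a1 were under the filter on low values in every comparison, with group means of at most 1.86 CPM.

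**Figure D2:**
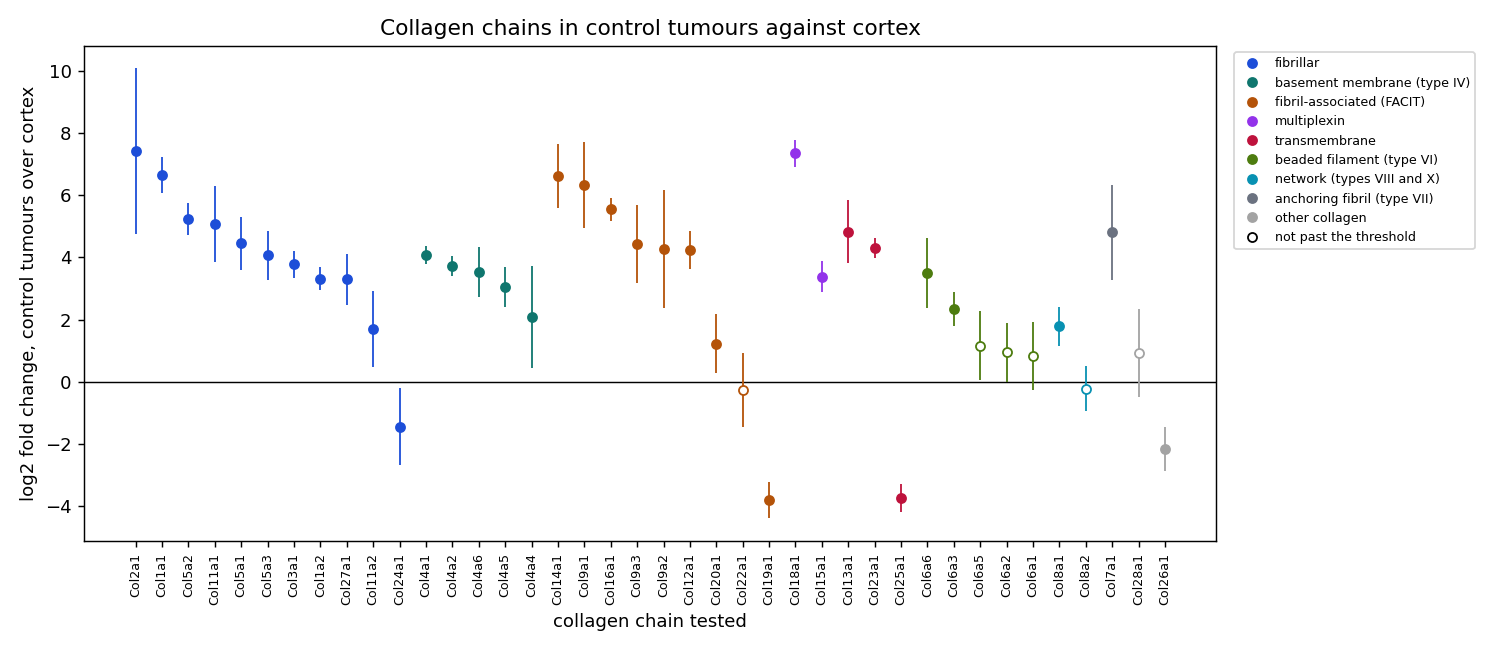
Log2 fold change of the 40 collagen chains tested, control tumours over cortex (limma, n = 3 libraries each), with 95% intervals, ordered by structural class and then by size. Filled points passed the threshold. Of these, 30 lie above 0 and 4 below it, with Col2a1 at 7.41 and Col19a1 at -3.80 as the ends of the range.

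Of the 11 fibrillar chains, which build the rope-like fibrils of connective tissue, 10 rose and 1 fell. Col1a1 (chromosome 11, 94936224 to 94953042, plus strand) stood at 662, 934 and 591 CPM in ETV5 tumours, 465, 1402 and 1233 CPM in NPY tumours, 1449, 2293 and 1263 CPM in control tumours, and 18.1, 12.7 and 12.1 CPM in cortex. Its control libraries were all far above the cortex ones (log2 fold change 6.65, SE 0.25, adjusted p = 5.88e-07), a 101-fold difference on the log2(value + 1) scale. Col5a2, a chain of type V that sits in the core of type I fibrils, averaged 355 ± 85.4 CPM in control tumours, against 8.29 ± 2.11 CPM in cortex (log2 fold change 5.23, SE 0.23, adjusted p = 8.38e-07). Its partner Col5a1 averaged 467 ± 185 CPM in control tumours, against 18.6 ± 7.98 CPM in cortex (log2 fold change 4.45, SE 0.37, adjusted p = 1.17e-05). Col3a1, the chain of type III found in vessel walls, averaged 318 ± 66.6 CPM in control tumours, against 20.4 ± 3.78 CPM in cortex (log2 fold change 3.78, SE 0.19, adjusted p = 1.27e-06). Col1a2, the other chain of type I, averaged 374 ± 77.8 CPM in control tumours, against 32.8 ± 3.34 CPM in cortex (log2 fold change 3.32, SE 0.16, adjusted p = 1.15e-06). The other fibrillar chains that rose were Col5a3, a further chain of type V (log2 fold change 4.06, SE 0.34, adjusted p = 1.17e-05), Col27a1, a cartilage chain (log2 fold change 3.30, SE 0.36, adjusted p = 5.33e-05), Col2a1, Col11a1 and Col11a2. Col24a1, a fibrillar chain known from developing bone and cornea, fell (log2 fold change -1.43, SE 0.54, adjusted p = 0.0407) and stood at 2.12, 1.76 and 0.638 CPM in control tumours, against 4.97, 1.84 and 4.45 CPM in cortex. Its groups overlapped, and the call ended in 4 of 6 fits that left out 1 library, with adjusted p = 0.0519 without control replicate 2, 0.0939 without control replicate 3, 0.14 without cortex replicate 1 and 0.125 without cortex replicate 3.

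The chains known from cartilage, of types II, IX and XI, all rose. Col2a1, the chain of type II and the main collagen of cartilage, stood at 9.97, 1.64 and 10.5 CPM in ETV5 tumours, 28.2, 4.14 and 748 CPM in NPY tumours, 14.1, 699 and 154 CPM in control tumours, and 0.537, 0.503 and 0.418 CPM in cortex. It was above cortex in all 9 tumour libraries, while the tumour libraries themselves ran from 1.64 to 748 CPM, and its cortex values rest on 4, 3 and 3 reads. The log2 fold change of control tumours over cortex was 7.41 (SE 1.16, adjusted p = 0.000478). Col11a1, a chain of type XI that shares fibrils with type II, averaged 459 ± 287 CPM in control tumours, against 10.5 ± 3.70 CPM in cortex (log2 fold change 5.08, SE 0.53, adjusted p = 4.1e-05). Its partner Col11a2 averaged 133 ± 84.5 CPM in control tumours, against 30.7 ± 9.14 CPM in cortex (log2 fold change 1.71, SE 0.53, adjusted p = 0.0186). That call ended with adjusted p = 0.0624 without control replicate 2, 0.126 without control replicate 3 and 0.0719 without cortex replicate 2. Of the chains of type IX, FACITs that coat type II fibrils, Col9a1 averaged 216 ± 169.9 CPM in control tumours, against 1.69 ± 0.230 CPM in cortex (log2 fold change 6.33, SE 0.60, adjusted p = 2.48e-05). Col9a2 averaged 447 ± 418 CPM in control tumours, against 12.8 ± 3.48 CPM in cortex (log2 fold change 4.26, SE 0.83, adjusted p = 0.00165), and Col9a3 averaged 1223 ± 989.8 CPM in control tumours, against 38.7 ± 1.90 CPM in cortex (log2 fold change 4.43, SE 0.55, adjusted p = 0.000113).

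The stretches of 250 bases before the RefSeq start sites of 3 of these chains are shown because the chains of types II, IX and XI all rose, and that of Col23a1, a transmembrane collagen, because it had the lowest adjusted p of all chains between NPY and control tumours. They are from build GRCm38.p6, at chr1:24177360-24177609, chr3:114030290-114030539, chr17:34038888-34039137 and chr11:51289670-51289919, all plus strand, 5′ to 3′.
Col9a1: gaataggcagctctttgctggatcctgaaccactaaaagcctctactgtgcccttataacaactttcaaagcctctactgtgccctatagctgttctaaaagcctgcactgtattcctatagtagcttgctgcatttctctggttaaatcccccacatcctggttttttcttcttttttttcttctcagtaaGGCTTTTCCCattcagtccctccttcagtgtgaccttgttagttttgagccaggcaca
Col11a1: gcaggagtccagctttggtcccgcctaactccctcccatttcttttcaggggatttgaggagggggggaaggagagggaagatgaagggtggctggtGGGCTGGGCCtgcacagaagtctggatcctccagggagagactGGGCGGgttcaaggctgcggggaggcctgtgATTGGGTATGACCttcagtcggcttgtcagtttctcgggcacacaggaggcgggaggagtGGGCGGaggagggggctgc
Col11a2: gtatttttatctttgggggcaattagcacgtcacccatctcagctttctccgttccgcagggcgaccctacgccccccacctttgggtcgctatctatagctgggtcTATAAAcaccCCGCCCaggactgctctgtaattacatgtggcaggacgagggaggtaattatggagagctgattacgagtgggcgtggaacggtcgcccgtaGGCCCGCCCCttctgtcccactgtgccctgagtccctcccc
Col23a1: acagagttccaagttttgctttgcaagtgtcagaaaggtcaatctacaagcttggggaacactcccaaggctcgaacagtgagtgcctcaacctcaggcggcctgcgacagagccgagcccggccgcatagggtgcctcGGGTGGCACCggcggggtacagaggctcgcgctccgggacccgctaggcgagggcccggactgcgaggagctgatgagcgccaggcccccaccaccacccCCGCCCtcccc
Capitals mark letters that match a searched motif on either strand: the ETS core CCGGAA, the NF-kB form (GGG, then 5 letters of any kind, then CC; the family of RELA), the CCAAT box, the TATA box TATAAA and the SP1 box GGGCGG. In Col11a1 a CCAAT box on the other strand overlaps an NF-kB match, and in Col11a2 1 SP1 match lies near the TATA box and another lies inside the NF-kB match. A RefSeq promoter was matched for 35 of the 44 chains. None was matched for Col1a1, Col2a1, Col4a3, Col5a2, Col9a3, Col12a1, Col14a1, Col22a1 and Col26a1, so the counts below do not cover these chains. Some chains have a further RefSeq window, and a chain or symbol was counted if any of its windows held a match. The further window of Col9a1, from chr1:24194953, is not shown and holds NF-kB matches and a CCAAT box. The NF-kB form was found in 26 of the 35 (74.29%), against 48.65% of 27025 gene symbols, and the SP1 box in 21 (60%), against 35.36%. The CCAAT box was found in 13 (37.14%), against 37.49%, and the TATA box in 5 (14.29%), against 14.33%. The ETS core was found in none of the 35, against 13.59% of symbols, which says only that these letters are not in these windows. A match is a description of letters and not a site.

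Among the other FACITs, Col14a1, which binds fibrils through decorin, stood at 948, 60.7 and 106 CPM in ETV5 tumours, 799, 89.8 and 612 CPM in NPY tumours, 116, 307 and 509 CPM in control tumours, and 2.55, 2.18 and 2.09 CPM in cortex. The control libraries did not overlap with cortex (log2 fold change 6.61, SE 0.45, adjusted p = 4.19e-06), and both groups with an added gene held libraries above and below the control mean. Col16a1 averaged 749 ± 158 CPM in control tumours, against 13.9 ± 0.874 CPM in cortex (log2 fold change 5.54, SE 0.17, adjusted p = 2.97e-07). Col12a1, which lies on the surface of type I fibrils, averaged 231 ± 83.8 CPM in control tumours, against 10.4 ± 1.46 CPM in cortex (log2 fold change 4.22, SE 0.27, adjusted p = 2.95e-06). Col20a1 rose less (log2 fold change 1.22, SE 0.41, adjusted p = 0.0258), with adjusted p = 0.0611 without control replicate 1 and 0.0953 without cortex replicate 2. Col19a1, a FACIT that interneurons express in the mouse brain, fell (log2 fold change -3.80, SE 0.25, adjusted p = 3.75e-06). It stood at 1.31, 1.49 and 2.30 CPM in ETV5 tumours, 0.486, 1.10 and 0.572 CPM in NPY tumours, 1.91, 1.76 and 3.03 CPM in control tumours, and 30.2, 30.5 and 24.8 CPM in cortex, with all 9 tumour libraries under all cortex libraries.

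Of type IV, the network of basement membranes, all 5 chains tested rose. Col4a1 (chromosome 8, 11198423 to 11312826, minus strand) stood at 1311, 526 and 646 CPM in ETV5 tumours, 779.6, 727 and 1440.2 CPM in NPY tumours, 906, 988 and 1015 CPM in control tumours, and 61.4, 46.0 and 47.6 CPM in cortex. Col4a2 (chromosome 8, 11312805 to 11449287, plus strand) stood at 951, 366 and 503 CPM in ETV5 tumours, 759.6, 928 and 1096 CPM in NPY tumours, 684, 685 and 613 CPM in control tumours, and 54.1, 38.1 and 42.7 CPM in cortex. For both, the control libraries lay close to one another and more than 10-fold above cortex, with log2 fold changes of 4.06 (SE 0.13, adjusted p = 3.15e-07) and 3.71 (SE 0.14, adjusted p = 5.88e-07). These genes lie head to head, with annotated starts 21 bases apart. Col4a5 and Col4a6, another such pair on chromosome X with RefSeq starts 1343 bases apart, rose by 3.05 and 3.53 on the log2 scale (adjusted p = 1.88e-05 and 2.91e-05). Col4a4 rose by 2.08 (adjusted p = 0.0285) at 3.52 ± 2.73 CPM in control tumours, against 0.673 ± 0.535 CPM in cortex, with adjusted p = 0.102 without control replicate 1, 0.0532 without cortex replicate 2 and 0.088 without cortex replicate 3.

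Both multiplexins rose. Col18a1 (chromosome 10, 77052178 to 77166548, minus strand) stood at 1796, 597 and 899 CPM in ETV5 tumours, 1165, 778 and 1309 CPM in NPY tumours, 818, 1355 and 1055 CPM in control tumours, and 6.04, 5.53 and 5.29 CPM in cortex. It had the smallest adjusted p of all chains here (log2 fold change 7.35, SE 0.19, adjusted p = 1.59e-07), a 163-fold difference on the log2(value + 1) scale. Col15a1, the multiplexin of vessel and muscle basement membranes, averaged 61.5 ± 14.4 CPM in control tumours, against 5.11 ± 0.810 CPM in cortex (log2 fold change 3.37, SE 0.22, adjusted p = 3.21e-06). Col7a1, the chain of the fibrils that anchor skin epithelium, rose as well (log2 fold change 4.8, SE 0.67, adjusted p = 0.000228), at 27.7, 82.9 and 23.3 CPM in control tumours, against 1.88, 0.335 and 1.81 CPM in cortex.

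The transmembrane chains moved in both directions. Col23a1 stood at 251, 1049 and 672 CPM in ETV5 tumours, 154, 256 and 171 CPM in NPY tumours, 391, 366 and 384 CPM in control tumours, and 18.0, 13.4 and 20.2 CPM in cortex. Col13a1, a collagen of neuromuscular junctions, averaged 31.3 ± 11 CPM in control tumours, against 0.900 ± 0.463 CPM in cortex. Both rose, with log2 fold changes of 4.30 (SE 0.15, adjusted p = 4.21e-07) and 4.83 (SE 0.44, adjusted p = 1.95e-05). Col25a1 stood at 3.15, 34.5 and 3.54 CPM in ETV5 tumours, 3.04, 2.92 and 2.48 CPM in NPY tumours, 5.19, 5.39 and 6.38 CPM in control tumours, and 68.2, 52.8 and 87.3 CPM in cortex. It fell in control tumours (log2 fold change -3.74, SE 0.20, adjusted p = 1.41e-06), and ETV5 replicate 2 was the highest of the tumour libraries. That library also had the most neuron marker RNA of the ETV5 and NPY tumours, at a sum of 499 CPM. The control tumours held 403, 515 and 829.8 CPM of these markers, with Col25a1 at 5.19 to 6.38 CPM. The part of neuron RNA in the Col25a1 value was not tested. Col26a1 fell too (log2 fold change -2.15, SE 0.31, adjusted p = 0.00028), at 1.80, 3.41 and 2.07 CPM in control tumours, against 9.27, 9.90 and 9.74 CPM in cortex.

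Type VI, whose beaded filaments surround many cell types, had 2 of its 5 tested chains among those that rose. Col6a3 averaged 21 ± 4.37 CPM in control tumours, against 3.55 ± 0.666 CPM in cortex (log2 fold change 2.34, SE 0.24, adjusted p = 3.34e-05). Col6a6 averaged 19.3 ± 12.6 CPM in control tumours, against 1.32 ± 0.561 CPM in cortex (log2 fold change 3.5, SE 0.49, adjusted p = 0.000241). Col6a1 stood at 214, 56.1 and 64.5 CPM in control tumours, against 37.2, 38.2 and 66.7 CPM in cortex (log2 fold change 0.83, SE 0.47, adjusted p = 0.144). Col6a2 stood at 75.2, 18.5 and 36.7 CPM in control tumours, against 17.5, 14.9 and 18.9 CPM in cortex (log2 fold change 0.95, SE 0.42, adjusted p = 0.0711). In both, control replicate 1 lay well above the other control libraries, and the groups overlapped. Of the network chains, Col8a1, known from vessel walls and the cornea, rose (log2 fold change 1.79, SE 0.27, adjusted p = 0.000397) at 29.3 ± 7.15 CPM in control tumours, against 7.49 ± 2.12 CPM in cortex. Its partner Col8a2 did not pass, averaging 5.05 ± 1.24 CPM in control tumours, against 5.29 ± 1.65 CPM in cortex (log2 fold change -0.22, SE 0.32, adjusted p = 0.545). Neither did Col22a1, a FACIT of tissue junctions, at 1.80, 4.29 and 8.46 CPM in control tumours, against 4.97, 5.37 and 3.06 CPM in cortex (log2 fold change -0.26, SE 0.52, adjusted p = 0.666). Col28a1 did not pass at 0.953, 3.74 and 2.39 CPM in control tumours, against 1.07, 1.51 and 0.418 CPM in cortex (log2 fold change 0.94, SE 0.62, adjusted p = 0.198). The groups overlapped in both.

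**Figure D3:**
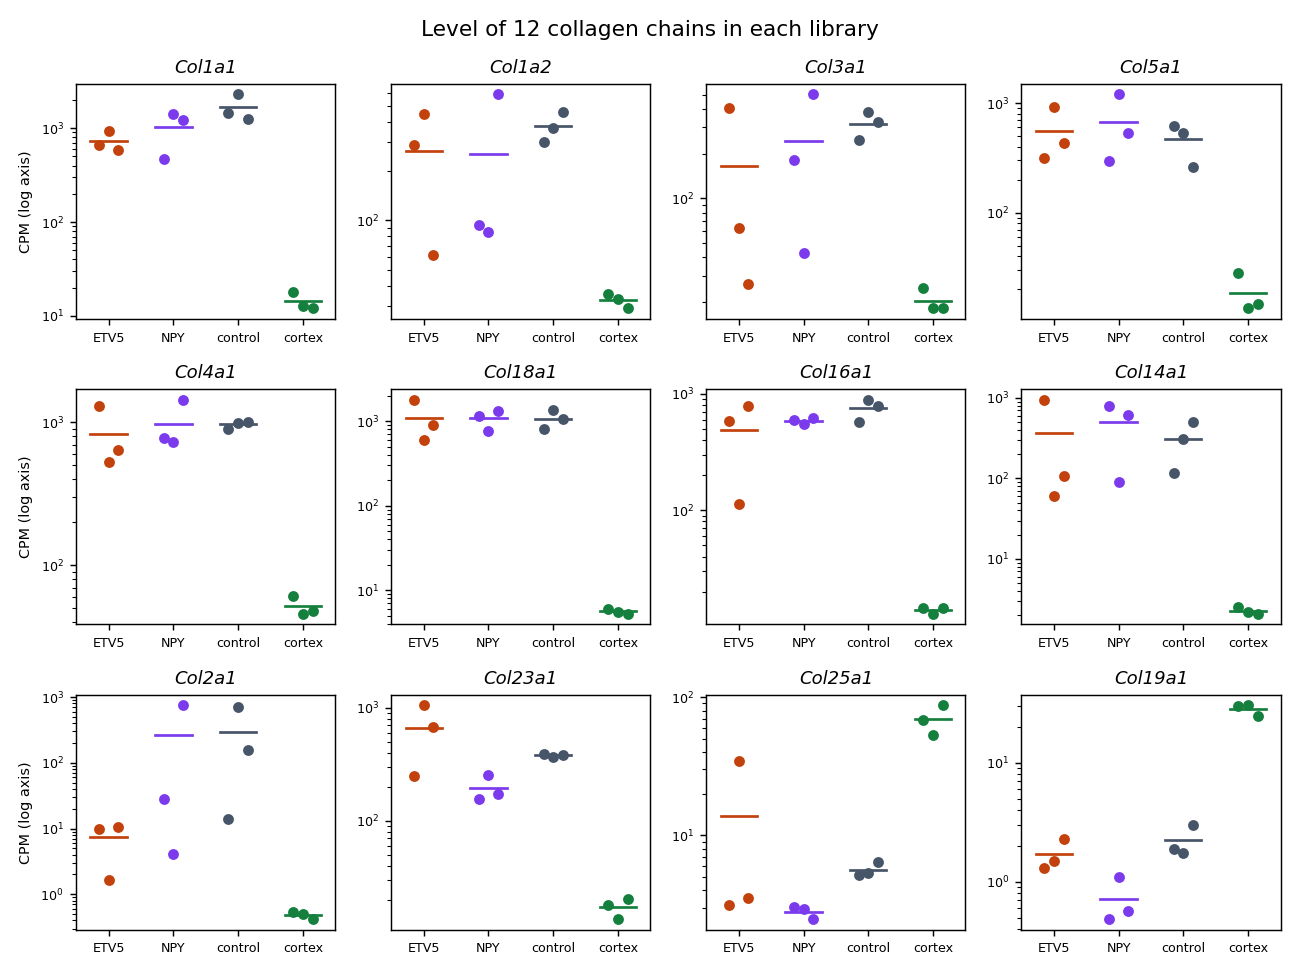
Level of 12 collagen chains in each library (CPM, log axis, a separate scale for each chain), with 1 point per library and a line at the mean of 3. In 10 of these chains every tumour library lies above every cortex library, and in Col25a1 and Col19a1 every tumour library lies below.

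Levels were also compared within each library as ratios between partner chains. The ratio of length-scaled levels of Col1a1 to Col1a2, which combine in type I, was 2.08, 1.88 and 8.68 in ETV5 tumours, 4.45, 14.8 and 1.90 in NPY tumours, 4.36, 5.64 and 2.51 in control tumours, and 0.456, 0.346 and 0.374 in cortex. All tumour libraries lay above 1 and all cortex libraries below it. The ratio of Col11a1 to Col11a2 was 3.01, 1.34 and 1.67 in ETV5 tumours, 4.32, 0.523 and 1.55 in NPY tumours, 2.60, 2.44 and 2.36 in control tumours, and 0.238, 0.217 and 0.255 in cortex. The tumour libraries again lay above all cortex libraries. The ratio of Col8a1 to Col8a2 was 4.91, 4.93 and 4.94 in control tumours, against 1.10, 1.40 and 1.12 in cortex. The ETV5 libraries had 0.924, 1.35 and 6.78 for it, while the NPY libraries had 5.65, 0.815 and 3.29. ETV5 replicates 1 and 2 and NPY replicate 2 thus lay within or below the cortex range. The ratio of Col4a1 to Col4a2 was closer between the groups, at 1.29, 1.41 and 1.61 in control tumours, against 1.11, 1.18 and 1.09 in cortex. That of Col6a1 to Col6a2 was 2.74, 2.92 and 1.69 in control tumours, against 2.05, 2.47 and 3.39 in cortex, with overlap. Of 17 ratios of partner chains compared, 11 did not overlap between control tumours and cortex, each with p = 0.1 by a two-sided exact permutation test, the smallest this design allows.

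The genes that make and handle collagen were also mostly higher in control tumours. Of 20 genes for hydroxylation, glycosylation and folding of the chains, 19 rose, with a median log2 fold change of 1.96, beside 35.7% higher over all genes. Plod2, a lysyl hydroxylase, averaged 206 ± 60.1 CPM in control tumours, against 7.59 ± 1.77 CPM in cortex (adjusted p = 1.78e-06). Crtap, part of the prolyl 3-hydroxylation complex, averaged 132 ± 15.9 CPM in control tumours, against 4.37 ± 1.32 CPM in cortex (adjusted p = 1.23e-06). Serpinh1, the collagen chaperone, averaged 477 ± 232 CPM in control tumours, against 24.8 ± 2.56 CPM in cortex (adjusted p = 1.96e-05). Mia3, a factor of procollagen export, did not pass (log2 fold change 0.00, adjusted p = 0.985). All 4 lysyl oxidases tested of 5 listed rose, led by Loxl2 at 545 ± 118 CPM in control tumours, against 2.05 ± 0.522 CPM in cortex (log2 fold change 7.81, SE 0.22, adjusted p = 2.67e-07). The log2 fold changes were 4.95 in Loxl1 and 4.57 in Lox. Of 7 procollagen cleavage genes tested of 8 listed, 4 rose and 1 fell, beside 35.7% and 36.2% of all genes. Among these Adamts14 averaged 40.0 ± 23.5 CPM in control tumours, against 0.417 ± 0.341 CPM in cortex. Adamts3 averaged 5.41 ± 2.57 CPM in control tumours, against 40.9 ± 15.8 CPM in cortex, so these procollagen N-proteinases moved in opposite directions (adjusted p = 3.49e-05 and 8.98e-05). Pcolce, an enhancer of C-propeptide removal, rose by 5.07 on the log2 scale and Adamts2, another N-proteinase, by 4.20.

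Of 8 collagen receptors tested of 9 listed, 7 rose. Over all genes 35.7% were called higher and 36.2% lower, which stands beside each count of this paragraph. Mrc2, an endocytic collagen receptor, averaged 173 ± 29.7 CPM in control tumours, against 7.09 ± 1.32 CPM in cortex (log2 fold change 4.42, SE 0.19, adjusted p = 8.62e-07). Ddr1, a collagen-binding kinase, averaged 1026 ± 264 CPM in control tumours, against 104 ± 16.9 CPM in cortex (log2 fold change 3.11, SE 0.20, adjusted p = 3.57e-06). The collagen-binding integrin chains Itga11 and Itga2 rose by 3.27 and 3.20 on the log2 scale. Of 6 genes of collagen breakdown tested of 8 listed, 5 rose, among them Mmp14, a membrane-bound collagenase, at 308 ± 72.5 CPM in control tumours, against 12.9 ± 2.16 CPM in cortex (log2 fold change 4.37, SE 0.21, adjusted p = 1.12e-06). Mmp2 and Mmp13, secreted proteinases, rose by 3.31 and 2.88 on the log2 scale. Of 7 fibril-binding proteoglycans and Sparc tested of 8 listed, 5 rose and Fmod fell (log2 fold change -1.14, SE 0.28, adjusted p = 0.00623). Sparc, a collagen-binding matrix protein, averaged 4678 ± 709 CPM in control tumours, against 527 ± 27.5 CPM in cortex (log2 fold change 2.97, SE 0.11, adjusted p = 5.88e-07). The proteoglycans Bgn, Dcn and Lum had log2 fold changes of 3.01, 3.36 and 3.59.

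Markers of cells that make collagen were mostly higher in control tumours. The counts of this paragraph stand beside 35.7% of all genes called higher and 36.2% called lower. Of 10 fibroblast markers 6 rose and 2 fell (log2 fold change -1.80 in Slc22a6 and -1.57 in Slc47a1), and their summed level was 621 to 884 CPM in ETV5 tumours, 508 to 542 CPM in NPY tumours, 719 to 1288 CPM in control tumours and 239 to 285 CPM in cortex. This sum depends much on single members. Igfbp2 alone gave 246, 744 and 184 CPM of it in ETV5 tumours and 150, 47.8 and 137 CPM in NPY tumours. Igfbp2 gave 631, 231 and 412 CPM in control tumours and 69.4, 80.3 and 64.5 CPM in cortex. Pdgfra, also in the list, averaged 122 ± 13.0 CPM in control tumours, against 123 ± 13.6 CPM in cortex. Of 12 mural cell markers 8 rose, among them Pdgfrb (3.28), Tagln (2.55) and Des (2.28), and Vtn fell (-1.18), with sums of 279 to 429 CPM in ETV5 tumours, 341 to 491 CPM in NPY tumours, 455 to 559 CPM in control tumours and 162 to 188 CPM in cortex. Of 12 endothelial markers 10 rose, among them Emcn (3.29), Cdh5 (2.56) and Tie1 (2.44), with sums of 322 to 482 CPM in ETV5 tumours, 217 to 600.3 CPM in NPY tumours, 528 to 637 CPM in control tumours and 151 to 221 CPM in cortex. All 6 markers of cycling progenitors rose, among them Cdk1 (5.60), with sums of 2271 to 2412 CPM in ETV5 tumours, 2321 to 3121 CPM in NPY tumours, 2663 to 2802 CPM in control tumours and 60.4 to 67.0 CPM in cortex, and all 13 of excitatory neurons fell, with log2 fold changes of -4.96 in Neurod6, -4.98 in Lamp5 and -3.98 in Nrgn. Vim was the most abundant of the 6 progenitor markers, so their sums do not follow the cell cycle genes alone. None of the fibroblast, mural or endothelial markers was at 0 reads in any group, and Dcn and Lum stand both in the fibroblast and in the proteoglycan list. The part of these cells in the collagen levels was not tested, and in bulk tissue fewer cells of a type and less RNA per cell cannot be told apart. Of the 44 chains, Col9a3 shared the largest part of its exon bases with a gene on the other strand (6.1%, with Tcfl5), and whether reads were counted by strand is stated in no source used here.

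The next comparison set ETV5 tumours against control tumours, which differ by the added ETS factor. No collagen chain passed the threshold by limma, as was true of all 14382 genes tested (0.00%, lowest adjusted p = 0.732). By edgeR none passed either, and DESeq2 on the recovered reads called 75 genes, 0.118% of all as higher and 0.403% as lower. Among those it called lower were Col1a1 (log2 fold change -1.19, SE 0.33, adjusted p = 0.0499) and Col2a1 (log2 fold change -5.28, SE 1.40, adjusted p = 0.0357). Over all alternatives the adjusted p ranged from 0.0499 to 0.949 for Col1a1 and from 0.0357 to 0.996 for Col2a1. The fitted log2 fold change was negative in 35 of the 40 chains tested and positive in 5, with a median of -0.72, beside -0.02 over all genes, of which 48.1% were positive. The chains were measured in the same libraries and are not independent of one another, so this count is not a test. With edgeR and with DESeq2, 30 were negative and 10 positive, with medians of -0.56 and -0.57. The median was -1.08 without ETV5 replicate 1, -0.34 without ETV5 replicate 2 and -0.42 without control replicate 2. Without ETV5 replicate 3, the library with the other code prefix, 36 of 41 were negative (median -0.75).

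An unadjusted p under 0.05 was found in 5 chains of 40, beside 6.56% of all genes, and the same 5 had all ETV5 libraries below all control libraries, beside 7.08%. In no chain did all ETV5 libraries lie above all control libraries, beside 7.10% of genes. Col1a1 stood at 662, 934 and 591 CPM in ETV5 tumours, against 1449, 2293 and 1263 CPM in control tumours (log2 fold change -1.18, SE 0.29, adjusted p = 0.732). Col2a1 stood at 9.97, 1.64 and 10.5 CPM in ETV5 tumours, against 14.1, 699 and 154 CPM in control tumours, where the control libraries themselves differ widely (log2 fold change -4.34, SE 1.45, adjusted p = 0.732). Col5a2 stood at 239, 189 and 277 CPM in ETV5 tumours, against 289, 451 and 324 CPM in control tumours (log2 fold change -0.60, SE 0.25, adjusted p = 0.732). These fibrillar chains had no overlap between the groups, and none passed over all genes. Col8a1 stood at 20.7, 8.07 and 7.09 CPM in ETV5 tumours, against 34.3, 21.1 and 32.6 CPM in control tumours (log2 fold change -1.44, SE 0.43, adjusted p = 0.732). Col6a5, a low chain of type VI, stood at 0.525, 0.448 and 0.531 CPM in ETV5 tumours, against 1.91, 2.86 and 2.07 CPM in control tumours (log2 fold change -1.92, SE 0.46, adjusted p = 0.732). Its ETV5 values rest on 4, 3 and 6 reads, so it entered the test through the control tumours. The 3 transmembrane chains tested were the only class with all values above 0, from 0.04 in Col13a1 to 0.55 in Col23a1, and none had groups apart.

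In several chains the ETV5 libraries were spread over a wider range than the control libraries. Col16a1 was 585, 113 and 781 CPM in ETV5 tumours, against 577, 887 and 782 CPM in control tumours, so that replicate 2 alone was low. Col3a1 was 406, 62.9 and 26.5 CPM in ETV5 tumours, against 248, 380.1 and 327 CPM in control tumours. Col14a1 was 948, 60.7 and 106 CPM in ETV5 tumours, against 116, 307 and 509 CPM in control tumours, and Col15a1 was 82.4, 8.82 and 18.6 CPM in ETV5 tumours, against 51.7, 78.0 and 54.7 CPM in control tumours. In these 3 chains replicate 1 was the high one. In Col23a1 (251, 1049 and 672 CPM in ETV5 tumours, against 391, 366 and 384 CPM in control tumours) it was the low one. The control libraries of Col23a1 lay within 366 and 391 CPM. In other chains the control libraries had the wider range. Col9a3 ran from 179 to 830 CPM in ETV5 tumours, against 371 to 2309 CPM in control tumours. Col11a1 ran from 95.8 to 336 CPM in ETV5 tumours, against 155 to 725 CPM in control tumours. The interval of the fold change ran from -2.70 to 0.71 for Col16a1 and from -1.10 to 0.89 for Col18a1, both of which include 0.

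NPY tumours against control tumours formed the comparison for the added neuropeptide. By limma and by edgeR none of the 40 chains tested passed and by DESeq2 3 did, while by limma 727 of 14425 genes did (5.04%, 0.728% as higher and 4.31% as lower). That count moved with single libraries: it was 138, 1 and 78 without control replicates 1, 2 and 3, and 125 without NPY replicate 1. Among the chains 28 values were negative and 12 positive, with a median of -0.51, beside 0.04 over all genes, of which 53.2% were positive. With edgeR the split was 25 and 15 (median -0.28), and with DESeq2 it was 23 and 17 (median -0.24). The limma median was -0.21 without NPY replicate 2 and -0.27 without control replicate 2. An unadjusted p under 0.05 was found in 6 of 40 chains, beside 23.5% of all genes. All NPY libraries lay below all control libraries in 7 chains and above in 1, beside 18.4% and 11.1%. By DESeq2 1 chain was higher and 2 lower, beside 4.41% and 8.34%. These shares of the chains were no larger than those of all genes.

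The lowest p was that of Col23a1, at 154, 256 and 171 CPM in NPY tumours, against 391, 366 and 384 CPM in control tumours (log2 fold change -0.92, SE 0.21, adjusted p = 0.0572). Its NPY libraries all lay under the tight control range, and the call was made by DESeq2 (log2 fold change -0.89, adjusted p = 0.00537) and by limma without NPY replicate 2 (log2 fold change -1.15, adjusted p = 0.0212). Over all alternatives the adjusted p of Col23a1 ranged from 0.00537 to 0.186. Col4a2 stood at 759.6, 928 and 1096 CPM in NPY tumours, against 684, 685 and 613 CPM in control tumours, all higher (log2 fold change 0.56, SE 0.17, adjusted p = 0.113, with adjusted p = 0.0342 by DESeq2 and 0.0342 to 0.308 over the alternatives). Its partner Col4a1 was at 779.6, 727 and 1440.2 CPM in NPY tumours, against 906, 988 and 1015 CPM in control tumours, with overlap (log2 fold change 0.03, SE 0.27, adjusted p = 0.955). The length-scaled ratio of Col4a1 to Col4a2 was thus 1.0, 0.763 and 1.28 in NPY tumours, against 1.29, 1.41 and 1.61 in control tumours, lower in every NPY library than in every control library, with p = 0.1 by a two-sided exact permutation test, the smallest this design allows. Col25a1 stood at 3.04, 2.92 and 2.48 CPM in NPY tumours, against 5.19, 5.39 and 6.38 CPM in control tumours (log2 fold change -0.90, SE 0.28, adjusted p = 0.118). Col19a1 stood at 0.486, 1.10 and 0.572 CPM in NPY tumours, against 1.91, 1.76 and 3.03 CPM in control tumours (log2 fold change -1.45, SE 0.48, adjusted p = 0.134). Both chains were highest in cortex, both lay lower in all NPY libraries, and the NPY values of Col19a1 rest on 4, 9 and 6 reads, so that it entered the test through the control tumours. Of the excitatory neuron markers 9 of 13 fell in the same comparison, beside 4.31% of all genes called lower. Their summed levels were 55.6 to 75.5 CPM in NPY tumours, against 403 to 829.8 CPM in control tumours, with Neurod6 at 0 reads in NPY tumours. The part of neurons in the values of Col25a1 and Col19a1 was not tested. Col20a1 stood at 5.46, 4.87 and 8.30 CPM in NPY tumours, against 29.2, 11.8 and 10.9 CPM in control tumours (log2 fold change -1.26, SE 0.44, adjusted p = 0.148), and was called lower by DESeq2 (adjusted p = 0.0437, 0.0437 to 0.299 over the alternatives). Col8a1 stood at 14.6, 3.04 and 12.6 CPM in NPY tumours, against 34.3, 21.1 and 32.6 CPM in control tumours (log2 fold change -1.70, SE 0.59, adjusted p = 0.149), and was called by neither limma nor DESeq2. Col4a4, with 9, 5 and 18 reads in NPY tumours, and Col8a2 were also lower in all NPY libraries, with log2 fold changes of -1.31 and -0.70.

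The fibrillar chains of NPY tumours varied between libraries. Col1a2 stood at 94.2, 85.2 and 586 CPM in NPY tumours, against 299.6, 367 and 455 CPM in control tumours, with NPY replicates 1 and 2 far under replicate 3. Without NPY replicate 3, limma called Col1a2 (log2 fold change -1.95, SE 0.21, adjusted p = 0.0227) and Col15a1 (log2 fold change -1.59, SE 0.28, adjusted p = 0.0464) as lower. With all libraries the values were -1.05 (adjusted p = 0.423) and -0.83 (adjusted p = 0.476). Col3a1 stood at 179.7, 42.4 and 502 CPM in NPY tumours, against 248, 380.1 and 327 CPM in control tumours. Col15a1 stood at 15.7, 22.4 and 92.4 CPM in NPY tumours, against 51.7, 78.0 and 54.7 CPM in control tumours. Both were highest in NPY replicate 3, as Col1a2 was. Col5a1 had another order, with NPY replicate 2 highest (295, 1201 and 530.1 CPM in NPY tumours, against 614, 528 and 259 CPM in control tumours). Endothelial markers summed to 252, 217 and 600.3 CPM in NPY tumours, against 528, 636 and 637 CPM in control tumours. Among NPY tumours they too were highest in replicate 3, and their part in Col1a2, Col3a1 and Col15a1 was not tested.

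**Figure D4:**
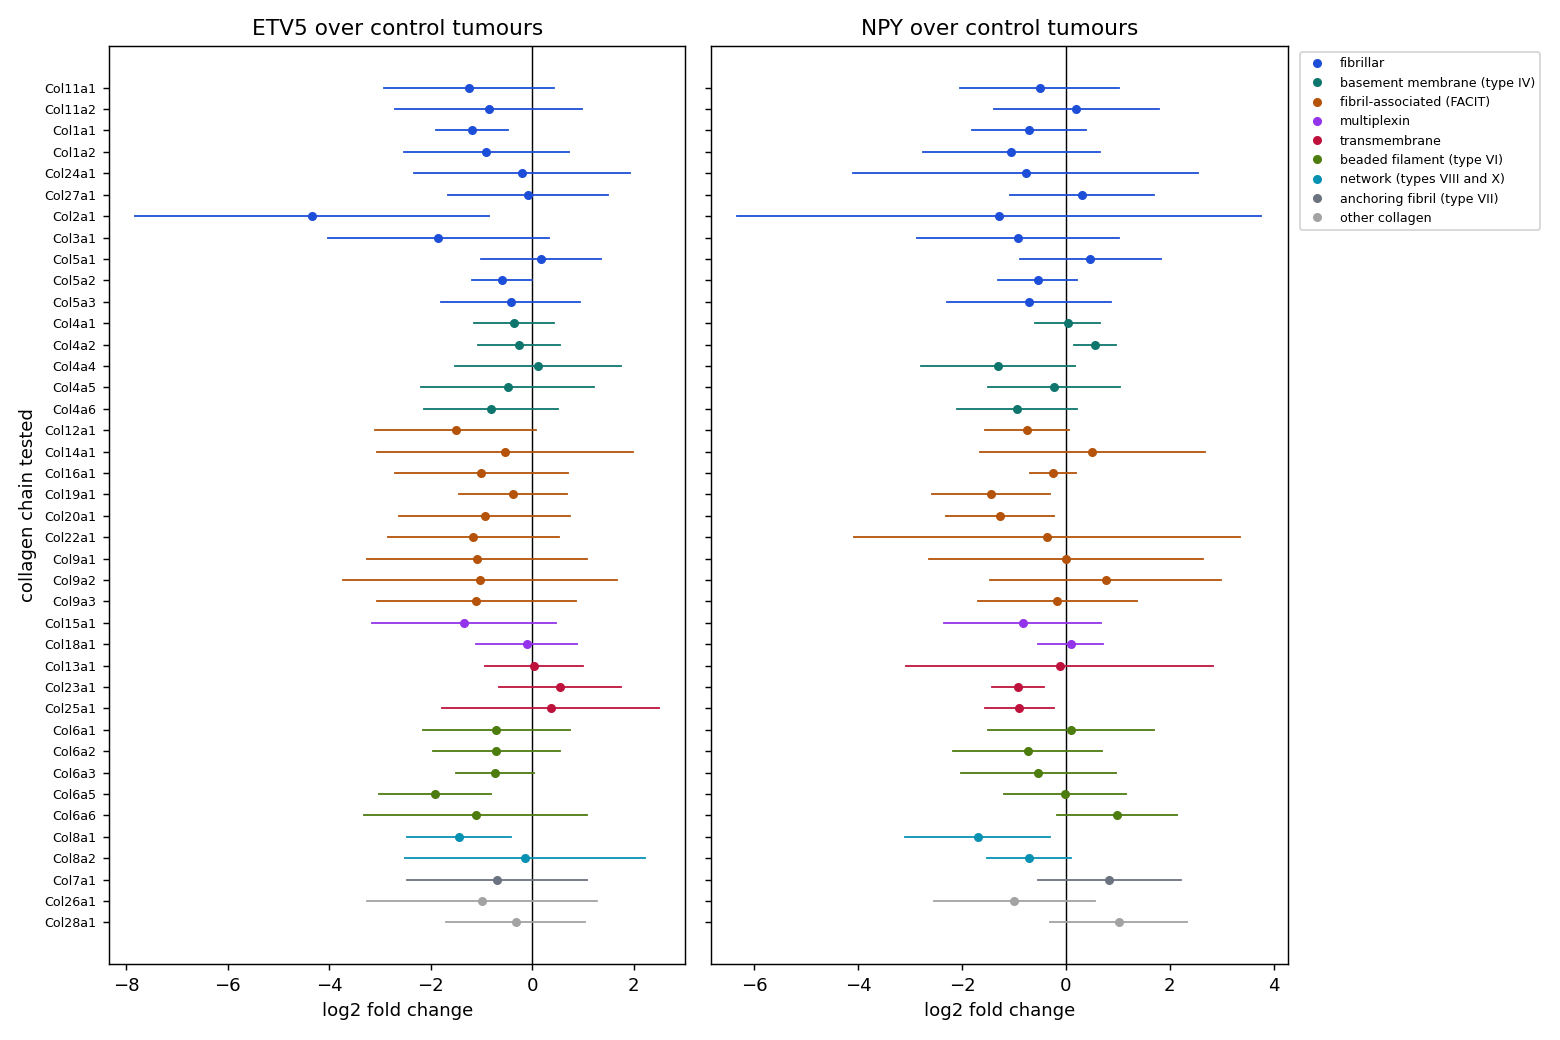
Log2 fold change of the collagen chains tested, ETV5 over control tumours (left) and NPY over control tumours (right), with 95% intervals (limma, n = 3 libraries each), coloured by structural class. No chain passed the threshold in either comparison, and both share the 3 control libraries.

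The comparisons share their control libraries, so a like direction in both is no independent support. Side by side, with ETV5 and then NPY over control tumours, the log2 fold changes were -1.18 and -0.71 for Col1a1, -1.44 and -1.70 for Col8a1, 0.55 and -0.92 for Col23a1, -1.92 and -0.02 for Col6a5, and -1.02 and 0.77 for Col9a2. Set directly against NPY tumours, on reads scaled over the 9 tumour libraries, ETV5 tumours differed in none of 38 chains by limma (0.00% of 14023 genes), edgeR or DESeq2 (0.257% of genes higher and 0.143% lower). At an unadjusted p under 0.05 there were 4, beside 5.93% of all genes: Col6a5 (log2 fold change -1.89), Col28a1 (-1.31), Col23a1 (1.51) and Col9a2 (-1.75), all with adjusted p = 0.794. Col6a5 and Col28a1 had fewer than 10 reads in at least 1 ETV5 library, and Col19a1 in at least 1 NPY library. All ETV5 libraries lay above all NPY libraries in 2 chains (Col19a1 and Col25a1) and below in 3, beside 7.47% and 4.98%. Col9a2 stood at 290.3, 43.6 and 197 CPM in ETV5 tumours, against 437, 314 and 618 CPM in NPY tumours, and the groups did not overlap. Col28a1 stood at 1.84, 1.35 and 1.77 CPM in ETV5 tumours, against 5.10, 2.68 and 4.87 CPM in NPY tumours, also apart. Col23a1 stood at 251, 1049 and 672 CPM in ETV5 tumours, against 154, 256 and 171 CPM in NPY tumours, where ETV5 replicate 1 lay inside the NPY range. The median over the chains was -0.40, and it was -0.01 without ETV5 replicate 2 and -0.08 without NPY replicate 3. Next in order of p was Col6a6 (log2 fold change -2.06, SE 0.88, adjusted p = 0.794). Of the 17 length-scaled ratios of partner chains, 3 did not overlap between ETV5 and control tumours, 3 between NPY and control tumours and 1 between ETV5 and NPY tumours, each with p = 0.1 by a two-sided exact permutation test, the smallest this design allows. Those between NPY and control tumours were Col4a1 to Col4a2, which was lower, Col4a5 to Col4a6, at 6.75, 4.62 and 4.95 in NPY tumours, against 3.09, 2.67 and 4.15 in control tumours, and Col9a2 to Col9a3, at 0.568, 0.575 and 0.582 in NPY tumours, against 0.166, 0.402 and 0.412 in control tumours. Those between ETV5 and control tumours were Col2a1 to Col11a1, Col2a1 to Col11a2 and Col2a1 to Col9a1, all lower. The ratio of Col2a1 to Col9a1 was 0.0767, 0.0447 and 0.0456 in ETV5 tumours, against 0.191, 1.33 and 0.584 in control tumours, and all 3 share Col2a1. Between ETV5 and NPY tumours it was Col9a2 to Col9a3, at 0.506, 0.254 and 0.248 in ETV5 tumours.

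Among the genes that handle collagen, none passed by limma in ETV5 tumours against control tumours or against NPY tumours, as was true of all genes. In NPY against control tumours 1 of 20 folding genes passed: Tmem38b, an ion channel of the endoplasmic reticulum needed for collagen output, was higher at 71.9 ± 8.06 CPM in NPY tumours, against 41.6 ± 7.40 CPM in control tumours (log2 fold change 0.88, SE 0.18, adjusted p = 0.0453). That share is near the 5.04% of all genes called, and the call ended without any 1 of the 6 libraries (adjusted p from 0.0622 to 0.152), with edgeR and with TMM. Fmod, which regulates fibril growth, averaged 4.78 ± 0.606 CPM in NPY tumours, against 14.3 ± 5.36 CPM in control tumours and missed the threshold (log2 fold change -1.41, SE 0.33, adjusted p = 0.063). All 7 genes tested of the list of proteoglycans and Sparc had negative values in both comparisons, with medians of -0.94 in ETV5 and -1.28 in NPY tumours over control tumours. For the most abundant genes of the other lists the log2 fold changes, with ETV5 and then NPY over control tumours, were -0.12 and 0.25 for P4hb, -0.46 and -0.50 for Serpinh1, -0.30 and 0.46 for Loxl2, 0.03 and -0.73 for Loxl1, -1.14 and -0.64 for Pcolce, -0.98 and -0.07 for Adamts2, 0.17 and 0.37 for Ddr1, -2.03 and -1.49 for Mrc2, -0.04 and 0.19 for Mmp14 and -1.01 and -1.12 for Mmp2. P4hb is the protein disulfide isomerase that is also a subunit of prolyl 4-hydroxylase. The markers of other cells were summed as 621 to 884 CPM in ETV5 tumours, 508 to 542 CPM in NPY tumours and 719 to 1288 CPM in control tumours for fibroblasts. Igfbp2 alone gave 744 CPM of the 884 CPM, which is the sum in ETV5 replicate 2. For mural cells they were 279 to 429 CPM in ETV5 tumours, 341 to 491 CPM in NPY tumours and 455 to 559 CPM in control tumours. In NPY tumours 1 of 12 mural markers (Vtn) and 1 of 12 endothelial markers (Slco1a4) fell, beside 4.31% of all genes called lower. Of 6 cycling progenitor markers 1 was called higher by limma (adjusted p = 0.0491), beside 0.728% of all genes. In 3 of them all NPY libraries lay above all control libraries, beside 11.1% of all genes. The log2 fold change was positive in 4 of these markers and negative in 2.

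The levels of some chains were correlated across tumour libraries. For 17 pairs of chains known to share trimers or fibrils, listed after the values were seen, the log2 of CPM plus 0.1 was correlated over the 9 tumour libraries, with p-values adjusted over the 17. Col9a2 and Col9a3 gave Pearson's r = 0.92 (exact permutation p = 0.000281, adjusted 0.00478) and Spearman's rho = 0.85 (exact permutation p = 0.00607, adjusted 0.0258). Without the 2 libraries farthest out on Col9a2, r was 0.80, and with group means removed it was 0.95. Col9a1 and Col9a3 gave Pearson's r = 0.86 (exact permutation p = 0.000827, adjusted 0.00703) and Spearman's rho = 0.92 (exact permutation p = 0.00131, adjusted 0.0111), with r = 0.87 and 0.85 by the same 2 checks. Col2a1 and Col9a1 gave Pearson's r = 0.87 (exact permutation p = 0.0039, adjusted 0.0166) and Spearman's rho = 0.93 (exact permutation p = 0.00075, adjusted 0.0111), with 0.79 and 0.89. Col2a1 and Col11a1 gave Pearson's r = 0.82 (exact permutation p = 0.00836, adjusted 0.0284) and Spearman's rho = 0.78 (exact permutation p = 0.0172, adjusted 0.0418), with 0.86 and 0.74. Col9a1 and Col9a2 gave Pearson's r = 0.78 (exact permutation p = 0.0125, adjusted 0.0313) and Spearman's rho = 0.87 (exact permutation p = 0.00451, adjusted 0.0255). The pairs with Col11a2 did not pass: Col11a1 and Col11a2 gave Pearson's r = 0.63 (exact permutation p = 0.0714, adjusted 0.121) and Spearman's rho = 0.62 (exact permutation p = 0.0857, adjusted 0.132). Col2a1 and Col11a2 gave Pearson's r = 0.53 (exact permutation p = 0.144, adjusted 0.188) and Spearman's rho = 0.43 (exact permutation p = 0.25, adjusted 0.283). Col2a1, Col9a1, Col9a2, Col9a3 and Col11a1 were each lowest in ETV5 replicate 2. Col9a2, Col9a3 and Col11a1 were highest in control replicate 2, and Col2a1 and Col9a1 in NPY replicate 3.

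Among type IV chains, Col4a5 and Col4a6 gave Pearson's r = 0.87 (exact permutation p = 0.00271, adjusted 0.0154) and Spearman's rho = 0.78 (exact permutation p = 0.0172, adjusted 0.0418). The relation fell to r = 0.51 without the 2 farthest libraries and so rests in part on them. Col4a1 and Col4a2 gave Pearson's r = 0.78 (exact permutation p = 0.0129, adjusted 0.0313) and Spearman's rho = 0.68 (exact permutation p = 0.0503, adjusted 0.095), and r was 0.43 without the 2 farthest. Col4a3 and Col4a4 gave Pearson's r = 0.78 (exact permutation p = 0.0154, adjusted 0.0327) and Spearman's rho = 0.80 (exact permutation p = 0.0138, adjusted 0.0418). Their r was 0.47 without the 2 farthest, and the pair rests on few reads, with Col4a3 at 1, 1 and 12 reads in NPY tumours. With group means removed, r was 0.95 for Col4a5 and Col4a6, 0.88 for Col4a1 and Col4a2, and 0.74 for Col4a3 and Col4a4. For chains of types I and V no correlation passed: Col1a1 and Col1a2 gave Pearson's r = 0.51 (exact permutation p = 0.166, adjusted 0.202) and Spearman's rho = 0.35 (exact permutation p = 0.359, adjusted 0.381), and Col5a1 and Col5a2 gave Pearson's r = -0.61 (exact permutation p = 0.0791, adjusted 0.122) and Spearman's rho = -0.47 (exact permutation p = 0.213, adjusted 0.278). Col5a1 was highest in ETV5 replicate 2 among ETV5 tumours and in NPY replicate 2 among NPY tumours, where Col5a2 was lowest.

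**Figure D5:**
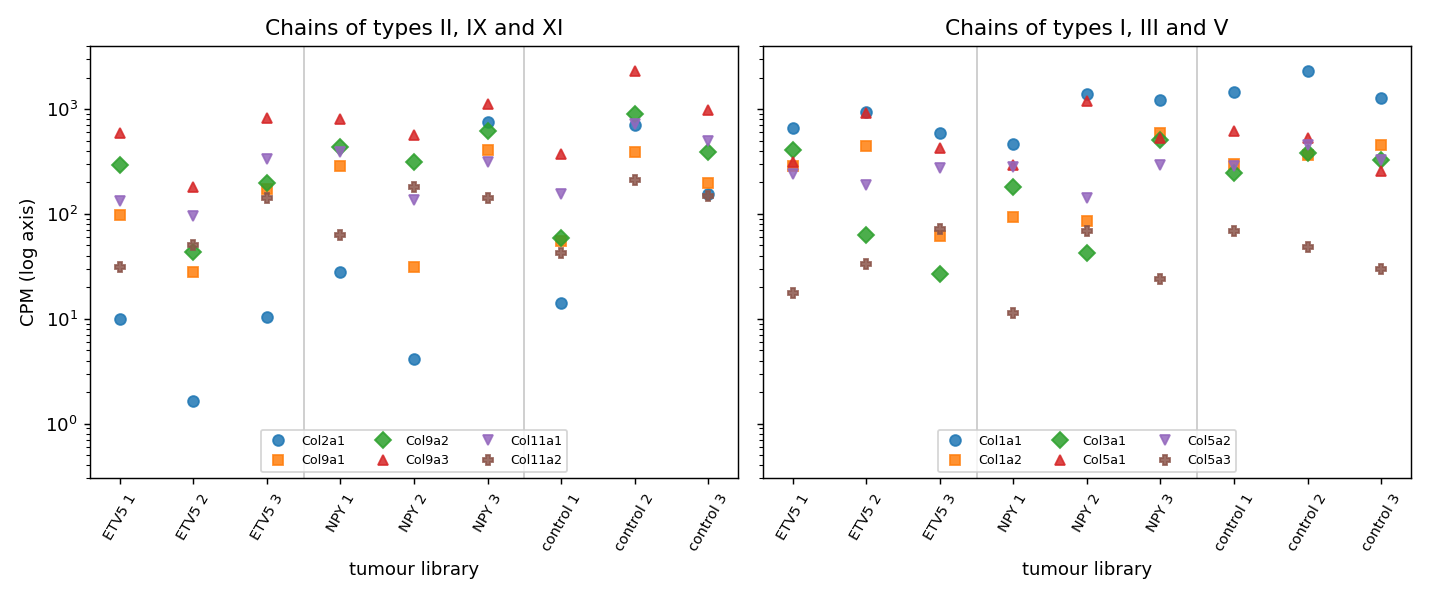
Level of chains of types II, IX and XI (left) and of types I, III and V (right) in each of the 9 tumour libraries (CPM, log axis), with 1 point per chain and library and grey lines between the groups. Col2a1, Col9a1 and Col11a1 are at 1.64, 27.6 and 95.8 CPM in ETV5 replicate 2 and at 699, 394 and 725 CPM in control replicate 2, while Col5a1 is highest in ETV5 replicate 2 and NPY replicate 2 of their groups.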

How the data were processed

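The authors deposited 2 tables of normalized signal per gene, 1 with ETV5 tumours, control tumours and cortex and 1 with NPY and control tumours. Per the labels' protocols, total RNA was taken up on columns and 300 ng went into stranded polyA libraries with paired-end reads. The submitters' processing notes name the aligner STAR 2.5.0a, the build mm10, DESeq2 1.30.1, and for quality control MultiQC 1.6 and FastQC 0.11.7. Counting tool, annotation and strand setting: not given in the sources used here. Within each library every deposited signal was a multiple of the worth of 1 read (100% of values, tolerance 0.01 read), as reads divided by a size factor are, and whole reads were recovered. The control libraries were the same in both tables. Dates stood in place of 27 symbols, and 2 names occurred in more than 1 row.

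Genes with enough reads by edgeR's filterByExpr (10 reads, 15 in total) were tested by limma 3.58.1 (R 4.3.3, trend and robust) on log2(deposited value + 1) over the 2 groups compared, with Benjamini-Hochberg adjustment over all genes tested and a threshold of 0.05. Fold changes are on this scale and understate those of low genes. ETV5 and NPY tumours were compared on reads rescaled over the 9 tumour libraries. edgeR 4.0.16 (quasi-likelihood) and DESeq2 1.42.0 on the recovered reads, other pseudocounts (0.5 and 5) and filters, TMM, a spread from all groups, the replicate block and leaving out each library were alternatives. The limma step was tested on simulated data. CPM come from recovered reads, and levels per length use the protein-coding transcript with the longest coding part.

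The members and lists were chosen with earlier results of these data known. The named chains were the 3 most abundant of each class, up to 3 called per class and direction with the largest fold, and the 5 with the lowest p between tumour groups. Of each gene list the rule took up to 3 called members per direction, or the 2 most abundant. Partner pairs and other chains and genes named were picked after their values were seen. Promoter sequences are RefSeq's, build GRCm38.p6.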

Additional observations from a re-analysis of the deposited data

How the results depend on the processing

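Between control tumours and cortex 28 to 32 chains were higher and 3 to 4 lower under every alternative run. Of the 34 chains called there, Col4a4, Col11a2, Col20a1 and Col24a1 missed the threshold under 3, 4, 3 and 5 of 15 alternatives, with adjusted p of at most 0.102, 0.126, 0.122 and 0.14, and the other 30 missed it under none of the 15. DESeq2 called 2 chains lower and 75 genes in ETV5 against control tumours, 1 chain higher, 2 lower and 1839 genes in NPY against control tumours, and 56 genes in ETV5 against NPY tumours. In ETV5 against NPY tumours 1 gene passed with no filter and 1 with a spread from all groups, and 0 to 1 with 1 library left out. In NPY against control tumours, leaving out 1 library gave 1 to 571 genes and 0 to 2 chains lower, namely 1 without NPY replicate 2 and 2 without NPY replicate 3. No result changed sign past a threshold. The causes of these differences were not tested.

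The labels do not say whether the replicate numbers pair the libraries. Same-numbered deviations correlated at -0.407, 0.133 and 0.374 between NPY and control tumours, and other-numbered ones at -0.549 to 0.512. Between ETV5 and control tumours the same-numbered ones correlated at -0.27, -0.0281 and -0.383. Deviations from a mean of 3 libraries are tied to one another, so these values cannot decide whether the libraries are paired. With the replicate block 264 genes passed in NPY against control tumours, 31 chains were higher and 4 lower in control tumours against cortex, and 0 chains passed between tumour groups. Chains with a few reads per library, such as Col2a1 in cortex, set the limit of depth.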
